A study of Mus musculus with 8 samples.

Results

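The glucocorticoid receptor, the enzymes and chaperones around it and its best-known response genes were followed through an osteogenic induction of C3H10T1/2 cells, a mouse embryonic mesenchymal line of strain C3H that can be driven towards bone, cartilage or fat. The set held 31 genes of the 18605 in the gene table, and 30 of them had enough counts to be tested. The genes were chosen by name, as known parts of the glucocorticoid pathway, with earlier results of these data in view. The changes over the 7 days of induction are therefore given as a description, and no count over the set is read as evidence.

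Glucocorticoids enter the cell freely and bind the glucocorticoid receptor, which waits in the cytoplasm in a complex with heat shock proteins and co-chaperones. The bound receptor moves to the nucleus, where it raises some genes through palindromic response elements and lowers others, many of them inflammatory. In mesenchymal cells a synthetic glucocorticoid, dexamethasone, is a standard part of media for both bone and fat differentiation.

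The cells carried lentiviral vectors with either a non-target control shRNA (NC) or an shRNA against Nap1l2, a nucleosome assembly protein (KD-Nap1l2). RNA of both was sequenced without induction and again 7 days into it (NC-7day and KD-Nap1l2-7day), so that 4 groups of 2 libraries resulted. The medium held dexamethasone, ascorbic acid and β-glycerol phosphate in serum-containing DMEM. Since no library came from cells given dexamethasone alone, or kept for 7 days without the medium, the hormone, the other additions and the time in culture cannot be told apart. Totals were 17420284 to 19427359 estimated counts per library. Nothing in the labels says that the libraries of a group were separate cultures, so p-values measure the spread between these libraries only.

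Nap1l2 itself had 3 and 3 estimated counts in NC, 2 and 7 in KD-Nap1l2, 15 and 5 in NC-7day, and 7 and 13 in KD-Nap1l2-7day. The label KD-Nap1l2 was thus not borne out by these counts, which are too low to show a knockdown or its absence. The paper reports knockdown in this cell line by Western blot and qPCR. The libraries are named below by their label alone. Of the mesenchymal markers, Col1a1, Col1a2 and Vim were high in all 8 libraries, while Nt5e was near 0. Of the 10 tested, 2 were called lower in NC and 4 in KD-Nap1l2, and 0 were called higher. In each, 4 of the 10 had positive log2 fold changes. Over all 13470 tested genes, 3.38% in NC and 7.36% in KD-Nap1l2 were called lower, and 4.83% and 6.84% higher. The summed level of the 11 mesenchymal markers was 19292 to 27419.5 normalized CPM (counts per 1000000 of the library's normalized total) before induction and 11369 to 14695 CPM after it. Epcam, Ptprc and Kdr, which define epithelial, blood and endothelial cells, were near 0 throughout. The 4 epithelial markers summed to 3.72 to 8.47 CPM before induction and 1.73 to 3.32 CPM after it, most of it Cdh1, which was called lower in both inductions. The 5 endothelial markers summed to 4.10 to 6.49 and then 1.65 to 2.87 CPM, with Tek called lower in KD-Nap1l2. The 6 macrophage and blood markers in the table summed to 17.5 to 22.9 and then 19.5 to 32.7 CPM, most of it Cd14, Cd68 and Lyz2, and none of the 4 tested was called. The 9 adipocyte markers summed to 61.3 to 115.8 CPM before induction and 165.1 to 214.6 CPM after it, with Adipoq, Plin1, Cfd and Lep at or near 0 and Fabp4 and Pparg called higher in both inductions. Of the other tested adipocyte markers, Cebpa and Lpl were called lower in KD-Nap1l2, with log2 fold changes of -2.40 and -1.54, against -0.93 and 0.13 in NC without a call. The 8 osteoblast markers summed to 1646 to 1831 CPM and then 2091 to 5412 CPM, nearly all of it Spp1, with Sp7, Alpl and Ibsp near 0. Spp1 was called higher and Runx2 lower in KD-Nap1l2, at 1.41 and -0.58. In NC no osteoblast marker was called, and 4 of the 5 tested had negative log2 fold changes. These shifts moved with the induction, and their part in the results below was not tested. In bulk RNA, more cells that express a gene and more RNA per cell cannot be told apart.

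**Figure D1:**
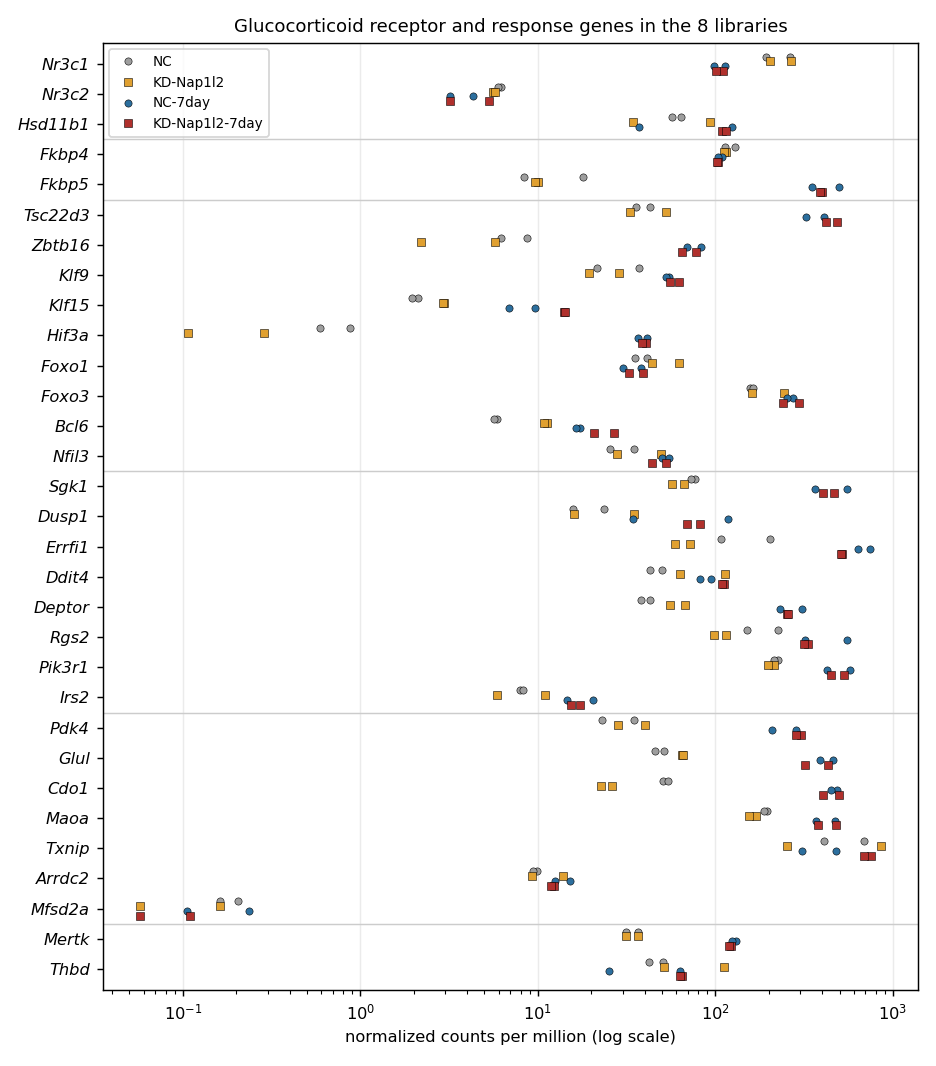
Each row is 1 gene of the set and each point 1 library, on a log axis of normalized CPM. Grey circles are NC, orange squares KD-Nap1l2, blue circles NC-7day and red squares KD-Nap1l2-7day, and lines separate the roles. Fkbp5, Hif3a and Cdo1 show wide gaps between the libraries before and after induction, Nr3c1 shifts to the left, and Txnip, Thbd and Hsd11b1 overlap.

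The DNA that lies before the starts of 3 strongly raised members is shown first, with the receptor's palindrome marked where the letters are present. The element searched for was AGAACA, 3 bases of any kind, then TGTTCT, which reads the same on both strands. RefSeq windows of 250 bases before to 50 bases after a start (build GRCm38.p6) were at hand for 26 of the 31 members. Sgk1, a serum- and glucocorticoid-regulated kinase, was the only member with the whole element, which occurred in 2 of the 18185 windows of genes in the table. It lay at chr10:21993701-21993715, 189 to 175 bases before the start of transcript NM_001161850.2. The 250 bases before that start, at chr10:21993640-21993889 on the plus strand, fell in no annotated exon and are printed with the element in capitals.

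Sgk1, start of NM_001161850.2: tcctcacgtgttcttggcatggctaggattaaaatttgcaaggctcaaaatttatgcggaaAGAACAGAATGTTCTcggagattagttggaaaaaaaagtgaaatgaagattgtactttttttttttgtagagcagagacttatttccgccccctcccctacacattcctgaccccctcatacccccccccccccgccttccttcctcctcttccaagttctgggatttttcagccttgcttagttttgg

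The Sgk1 transcript that carried most counts, NM_011361.3, starts further downstream, and the element lies 965 to 951 bases before that start. Its own 250 upstream bases, at chr10:21994416-21994665 on the plus strand, held no match.

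Sgk1, start of NM_011361.3: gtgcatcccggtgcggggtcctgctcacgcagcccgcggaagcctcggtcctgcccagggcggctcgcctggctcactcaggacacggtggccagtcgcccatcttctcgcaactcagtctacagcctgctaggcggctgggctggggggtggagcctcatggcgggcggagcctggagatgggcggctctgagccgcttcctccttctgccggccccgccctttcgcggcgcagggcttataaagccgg

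Fkbp5 and Hif3a, the members with the largest rise, are shown for comparison. Their windows lie at chr17:28486150-28486399 and chr7:17062428-17062677, both on the minus strand, outside annotated exons and at the start of the transcript with most counts. Neither held the element or the single stretch AGAACA on either strand.

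Fkbp5: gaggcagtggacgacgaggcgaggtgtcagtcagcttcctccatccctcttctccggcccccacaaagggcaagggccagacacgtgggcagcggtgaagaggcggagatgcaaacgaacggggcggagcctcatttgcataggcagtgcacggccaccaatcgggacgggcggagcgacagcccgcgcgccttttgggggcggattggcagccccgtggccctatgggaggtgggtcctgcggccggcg

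Hif3a: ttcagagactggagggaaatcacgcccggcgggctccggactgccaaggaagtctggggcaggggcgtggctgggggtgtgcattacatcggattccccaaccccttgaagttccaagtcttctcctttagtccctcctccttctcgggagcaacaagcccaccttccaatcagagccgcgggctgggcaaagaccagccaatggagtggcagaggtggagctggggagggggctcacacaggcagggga

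The stretch AGAACA alone, on either strand, was in 5 of 36 windows of members (13.9%) and in 14.5% of all windows. The 5 windows belonged to Sgk1, Bcl6 and Tsc22d3. No match in such a window says only that these letters are not in it.

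After 7 days of induction, 16 members were higher and 1 was lower in NC (edgeR, adjusted p under 0.05), against a background of 4.83% of all 13470 tested genes called higher and 3.38% called lower. In KD-Nap1l2, 17 members were higher and 1 was lower, with 6.84% of all genes called higher and 7.36% lower. The median log2 fold change of the 30 tested members was 1.20 in NC and 1.35 in KD-Nap1l2, while that of all tested genes was -0.0035 and -0.0070. In 18 members every induced library was above every library taken before induction, a pattern seen in 14.1% of all genes, and in 3 members (Nr3c1, Nr3c2 and Fkbp4) every induced library was below, as in 12.3% of all genes.

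**Figure D2:**
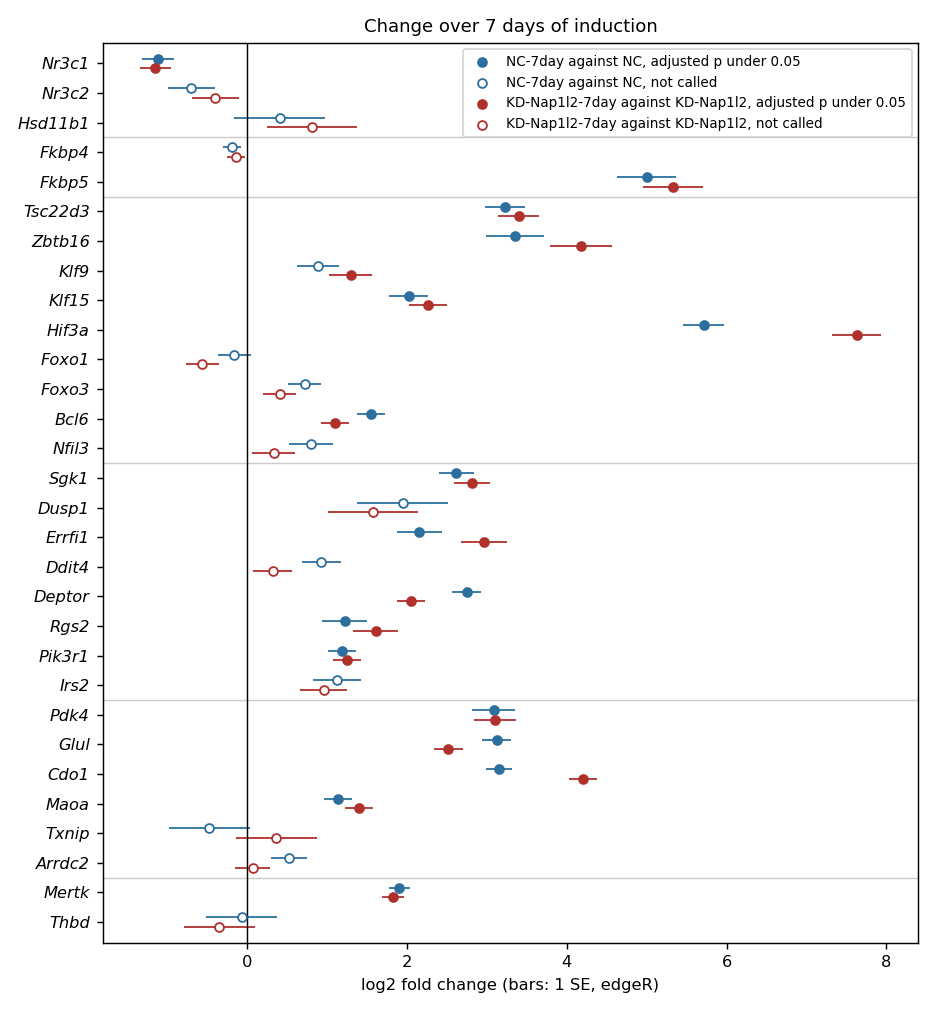
Log2 fold change over 7 days of induction for the 30 tested members, in NC (blue) and in KD-Nap1l2 (red), with bars of 1 SE from edgeR. Filled points have an adjusted p under 0.05, and open points do not. Hif3a and Fkbp5 lie furthest to the right, and Nr3c1 is the only filled point left of 0.

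The receptor's own mRNA was the member called lower in both inductions. Nr3c1, which encodes the glucocorticoid receptor, was at 263 and 194 CPM in NC, 202 and 265 in KD-Nap1l2, 97.9 and 113 in NC-7day, and 110.2 and 100.1 in KD-Nap1l2-7day. All 4 induced libraries lay below all 4 libraries before induction, a fall to about the same level in both kinds of cells. The log2 fold change was -1.12 ± 0.20 in NC (adjusted p = 0.0155) and -1.15 ± 0.20 in KD-Nap1l2 (adjusted p = 0.0106), or 2.17-fold and 2.22-fold lower. The call rested on single libraries, since the adjusted p was 0.121 without NC replicate 1, 0.0756 without NC-7day replicate 1, and 0.0802 and 0.0947 without replicate 1 or 2 of KD-Nap1l2-7day, with the direction kept. Per length, Nr3c1 stood at 35.4 ± 7.01 FPKM (SD, n = 2) in NC and 16.4 ± 2.21 FPKM in NC-7day.

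Nr3c2 encodes the mineralocorticoid receptor, which also binds glucocorticoids. It was at 6.21 and 5.94 CPM in NC, 5.58 and 5.70 in KD-Nap1l2, 4.28 and 3.20 in NC-7day, and 5.33 and 3.20 in KD-Nap1l2-7day, far below Nr3c1 on every library's scale. Per length it stood at 1.30 ± 0.0212 FPKM in NC against the 35.4 ± 7.01 FPKM of Nr3c1. Its induced libraries were all lower, yet the change did not pass the test (log2 fold change -0.70 ± 0.29 in NC (adjusted p = 0.191) and -0.40 ± 0.29 in KD-Nap1l2 (adjusted p = 0.385)).

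Hsd11b1 encodes the reductase that turns inactive 11-keto steroids into active hormone inside the cell. It was at 64.1 and 57.2 CPM in NC, 34.4 and 93.6 in KD-Nap1l2, 124 and 37.0 in NC-7day, and 109 and 115 in KD-Nap1l2-7day. The libraries of KD-Nap1l2 and of NC-7day lay far apart, so that the groups overlapped and neither contrast was called. Its log2 fold change in NC, 0.40 ± 0.57, turned to -0.71 without NC-7day replicate 1.

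Of the pair of immunophilin co-chaperones, 1 was called. Fkbp5 encodes FKBP51, which holds the receptor in a state of low hormone affinity and is itself a classical target, so that it acts as a brake. It was at 8.37 and 18.0 CPM in NC, 10.0 and 9.58 in KD-Nap1l2, 496 and 349.8 in NC-7day, and 400.4 and 389 in KD-Nap1l2-7day. Every induced library lay far above every earlier one. The log2 fold change was 5.00 ± 0.37 in NC (adjusted p = 0.000694) and 5.33 ± 0.38 in KD-Nap1l2 (adjusted p = 0.000483), a rise of 32.0-fold and 40.2-fold. Leaving out 1 library moved the log2 fold change of Fkbp5 in NC between 4.55 and 5.66. The highest value came without NC replicate 2, the higher of the NC libraries. Fkbp4 encodes FKBP52, which favours hormone binding and transport to the nucleus. It stayed at 114 and 128 CPM in NC, 114 and 111 in KD-Nap1l2, 109 and 103 in NC-7day, and 103 and 102 in KD-Nap1l2-7day, and although the induced libraries were all lower the log2 fold change was small and not called, at -0.19 ± 0.12 in NC (adjusted p = 0.343) and -0.14 ± 0.12 in KD-Nap1l2 (adjusted p = 0.446). Before induction the mean level of Fkbp5 per length was 3.38 ± 1.77 FPKM against 55.7 ± 5.20 FPKM for Fkbp4 in NC. After it the order was the other way round, at 108 ± 23.0 and 48.9 ± 0.262 FPKM in NC-7day.

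**Figure D3:**
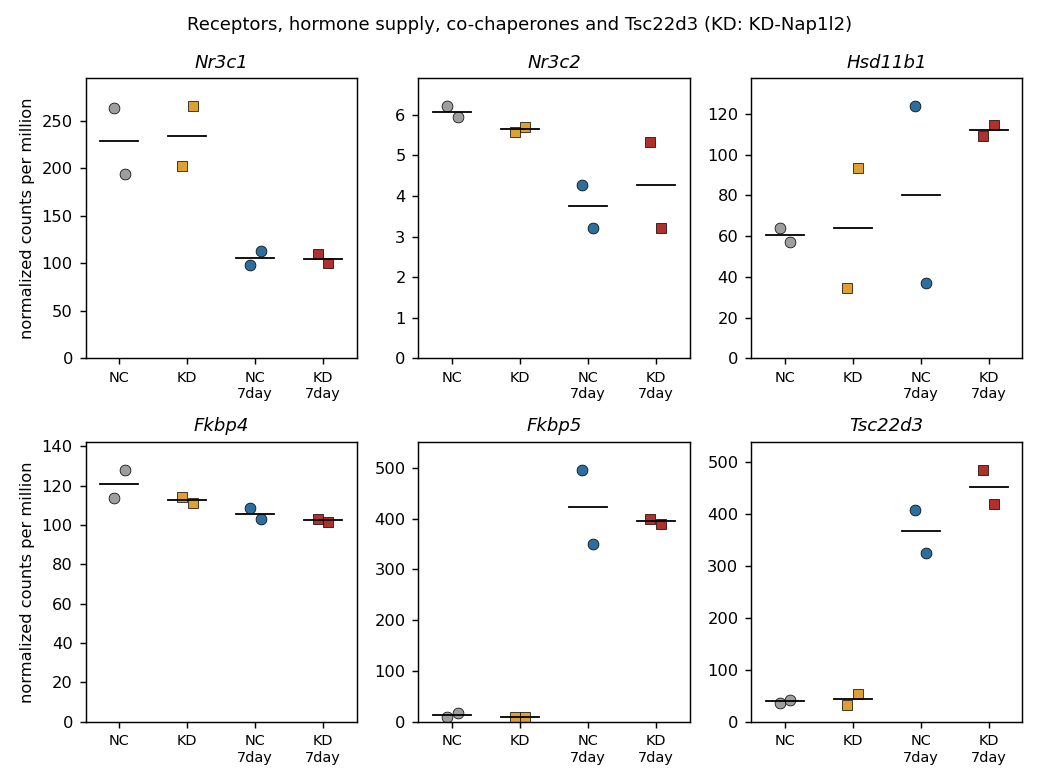
Normalized CPM of 6 members in the 4 groups, with 1 point per library and a line at the mean of the 2 libraries, each panel on its own axis from 0. Nr3c1 falls with induction, Fkbp5 and Tsc22d3 rise from low levels, Fkbp4 changes little, and the libraries of Hsd11b1 spread within KD-Nap1l2 and NC-7day.

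Among the 9 transcription regulators, 5 were called higher in NC and 6 in KD-Nap1l2, against 4.83% and 6.84% of all genes. Tsc22d3 encodes GILZ, a leucine zipper protein that carries much of the anti-inflammatory action of the hormone. It was at 35.9 and 42.7 CPM in NC, 32.9 and 52.9 in KD-Nap1l2, 409 and 325 in NC-7day, and 486 and 420.1 in KD-Nap1l2-7day, with a clear gap between the groups before and after induction. The log2 fold change was 3.22 ± 0.25 in NC (adjusted p = 0.000944) and 3.40 ± 0.26 in KD-Nap1l2 (adjusted p = 0.00059). Zbtb16 encodes the zinc finger repressor PLZF and was at 6.21 and 8.71 CPM in NC, 2.20 and 5.70 in KD-Nap1l2, 69.6 and 83.3 in NC-7day, and 64.4 and 77.9 in KD-Nap1l2-7day. It was low before induction in each library and rose in both kinds of cells, by a log2 fold change of 3.35 ± 0.36 in NC (adjusted p = 0.00281) and 4.18 ± 0.39 in KD-Nap1l2 (adjusted p = 0.00105). The call in NC was narrowly lost without NC replicate 1 (adjusted p = 0.05), and the value in KD-Nap1l2 was 5.01 without KD-Nap1l2 replicate 2.

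Hif3a encodes a hypoxia-inducible factor subunit that can oppose the other members of its family. It was at 0.594 and 0.871 CPM in NC, 0.107 and 0.285 in KD-Nap1l2, 41.2 and 36.6 in NC-7day, and 40.8 and 38.6 in KD-Nap1l2-7day. Before induction these levels rested on few reads, 28 summed counts in NC and 7 in KD-Nap1l2, against 1399 and 1418 afterwards. The ratio of the normalized summed counts was 52.7 in NC (95% exact counting interval 36.3 to 79.6) and 205.4 in KD-Nap1l2 (99.4 to 511.9). These intervals cover counting error only. Its log2 fold change was 5.71 ± 0.26 in NC (adjusted p = 6.76e-05) and 7.63 ± 0.31 in KD-Nap1l2 (adjusted p = 4.32e-05), and the second value was 8.45 without KD-Nap1l2 replicate 2.

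Klf9 and Klf15 encode Krüppel-like factors, the second of them a regulator of amino acid and fat metabolism. Klf15 was at 2.10 and 1.95 CPM in NC, 2.95 and 2.91 in KD-Nap1l2, 9.68 and 6.83 in NC-7day, and 14.1 and 14.2 in KD-Nap1l2-7day, low in all libraries but separate between the time points. Its log2 fold change was 2.02 ± 0.24 in NC (adjusted p = 0.00423) and 2.27 ± 0.24 in KD-Nap1l2 (adjusted p = 0.0018), and the call in NC was narrowly lost without NC replicate 1 (adjusted p = 0.0516). Klf9 was at 36.9 and 21.5 CPM in NC, 19.3 and 28.7 in KD-Nap1l2, 54.8 and 52.8 in NC-7day, and 62.7 and 55.2 in KD-Nap1l2-7day. The induced libraries were all higher, but the log2 fold change passed the edgeR test only in KD-Nap1l2, at 0.88 ± 0.27 in NC (adjusted p = 0.087) and 1.29 ± 0.27 in KD-Nap1l2 (adjusted p = 0.0209). DESeq2, 1 of 16 alternatives, called Klf9 in NC as well (adjusted p = 0.01997). The call in KD-Nap1l2 was lost without KD-Nap1l2 replicate 1 or without either KD-Nap1l2-7day library (adjusted p 0.0603, 0.13 and 0.0917). The difference between both responses of Klf9 was 0.41 ± 0.38 and was not called (adjusted p = 0.85).

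Bcl6 encodes a transcriptional repressor and was at 5.88 and 5.63 CPM in NC, 11.3 and 10.8 in KD-Nap1l2, 17.3 and 16.3 in NC-7day, and 26.7 and 20.8 in KD-Nap1l2-7day. It was higher after induction in both kinds of cells, by a log2 fold change of 1.55 ± 0.18 in NC (adjusted p = 0.00353) and 1.10 ± 0.17 in KD-Nap1l2 (adjusted p = 0.00773), and the second call was lost without KD-Nap1l2-7day replicate 1 (adjusted p = 0.0801). The forkhead factors Foxo1 and Foxo3 and the bZIP repressor Nfil3 were not called. Their log2 fold changes ran from -0.17 for Foxo1 to 0.80 for Nfil3 in NC and from -0.57 for Foxo1 to 0.41 for Foxo3 in KD-Nap1l2. Of 16 alternative fits, 8 of which left out 1 library, 5 called Foxo3 and 3 called Nfil3 in NC, DESeq2 and the fits without either KD-Nap1l2 library among them. In KD-Nap1l2, Foxo1 was called without KD-Nap1l2 replicate 1 (adjusted p = 0.0382) and Foxo3 without replicate 2 (adjusted p = 0.0474).

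Of the 8 genes of signalling and its inhibitors, the same 5 genes were called higher in both kinds of cells. Over all tested genes, 4.83% in NC and 6.84% in KD-Nap1l2 were called higher. Sgk1 was at 76.4 and 72.5 CPM in NC, 56.8 and 66.8 in KD-Nap1l2, 362 and 551 in NC-7day, and 465 and 403 in KD-Nap1l2-7day. It rose by a log2 fold change of 2.62 ± 0.22 in NC (adjusted p = 0.00126) and 2.81 ± 0.22 in KD-Nap1l2 (adjusted p = 0.000659). The rise lay in the transcript NM_011361.3, whose estimated counts were 1235 and 1177 in NC, 783 and 991 in KD-Nap1l2, 5707 and 9708 in NC-7day, and 8059.9 and 6704 in KD-Nap1l2-7day. The transcript that starts just after the palindrome, NM_001161850.2, also had more counts in every induced library, with 71.7 and 155 in NC, 80.3 and 52.2 in KD-Nap1l2, 389 and 669 in NC-7day, and 402 and 244 in KD-Nap1l2-7day. The transcript with a distal start, NM_001161848.2, was not higher after induction, with 109.6 and 78.5 in NC, 193 and 128 in KD-Nap1l2, 72.5 and 87.0 in NC-7day, and 0 and 76.8 in KD-Nap1l2-7day. Counts of transcripts that share exons are estimates of the splitting of common reads, and they were not tested.

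**Figure D4:**
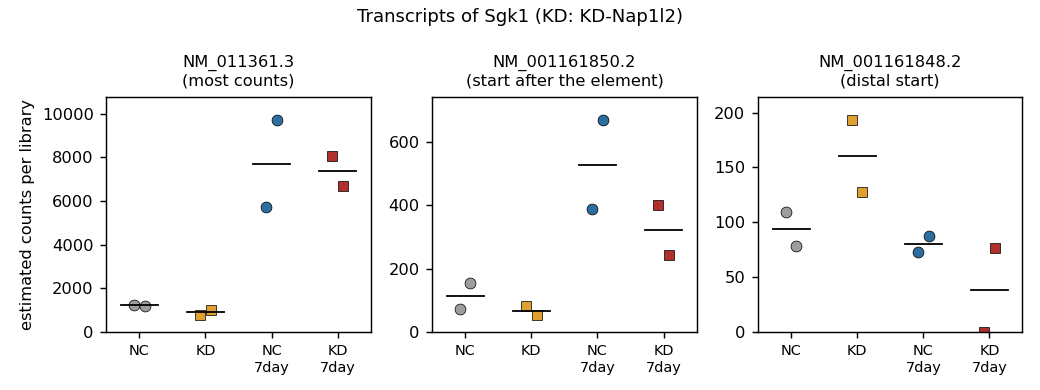
Estimated counts of the 3 Sgk1 transcripts with most counts, with 1 point per library and a line at the mean of the 2 libraries of a group, each panel on its own axis from 0. The first 2 transcripts are higher in all 4 induced libraries, and the transcript with the distal start is not.

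Errfi1 encodes MIG6, an inhibitor of the EGF receptor, and was at 203 and 108 CPM in NC, 59.5 and 71.6 in KD-Nap1l2, 637 and 746 in NC-7day, and 514 and 509 in KD-Nap1l2-7day. All induced libraries were far above the others, and the KD-Nap1l2 libraries were the lowest. On the log2 scale the rise was 2.15 ± 0.28 in NC (adjusted p = 0.00566) and 2.97 ± 0.29 in KD-Nap1l2 (adjusted p = 0.00136). Deptor, an inhibitor within the mTOR complexes, was at 42.6 and 37.9 CPM in NC, 55.2 and 67.6 in KD-Nap1l2, 308 and 231 in NC-7day, and 252 and 256 in KD-Nap1l2-7day and rose by a log2 fold change of 2.74 ± 0.18 in NC (adjusted p = 0.000452) and 2.05 ± 0.18 in KD-Nap1l2 (adjusted p = 0.000879). Rgs2, which speeds the shut-off of G protein signals, was at 225 and 151 CPM in NC, 114 and 98.0 in KD-Nap1l2, 554 and 321 in NC-7day, and 331 and 317 in KD-Nap1l2-7day. Its smallest induced value was still above its largest earlier one, and the log2 fold change was 1.22 ± 0.28 in NC (adjusted p = 0.0369) and 1.61 ± 0.28 in KD-Nap1l2 (adjusted p = 0.0116). Both calls of Rgs2 were lost without single libraries, with adjusted p up to 0.164 in NC without NC replicate 2 and up to 0.0802 in KD-Nap1l2 without KD-Nap1l2-7day replicate 1.

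Pik3r1 encodes the regulatory subunit p85α of phosphoinositide 3-kinase and was at 225 and 214 CPM in NC, 213 and 197 in KD-Nap1l2, 573 and 424 in NC-7day, and 529.7 and 447 in KD-Nap1l2-7day. It was higher in every induced library, by a log2 fold change of 1.18 ± 0.18 in NC (adjusted p = 0.00874) and 1.25 ± 0.18 in KD-Nap1l2 (adjusted p = 0.00531). The call in NC was lost without either NC library (adjusted p = 0.0857 and 0.0552), and that in KD-Nap1l2 was narrowly lost without KD-Nap1l2-7day replicate 1 (adjusted p = 0.0519). Irs2, an insulin receptor substrate, was higher in all 4 induced libraries but was not called, with a log2 fold change of 1.12 ± 0.30 in NC (adjusted p = 0.0601) and 0.96 ± 0.30 in KD-Nap1l2 (adjusted p = 0.0689). DESeq2 called it in both, and of the 16 alternatives 4 called it in NC and 2 in KD-Nap1l2. Ddit4, which encodes the mTOR inhibitor REDD1, and Dusp1, a phosphatase of MAP kinases, also had positive changes that edgeR did not call, at 0.93 and 1.95 in NC and 0.32 and 1.57 in KD-Nap1l2. Ddit4 was called in NC by 7 of 16 alternatives, among them DESeq2 and limma on log2(FPKM + 1). Dusp1 was called by 2 of them in NC and 3 in KD-Nap1l2. The NC-7day libraries were far apart for Dusp1, at 34.3 and 117 CPM, and it was called in NC without the first of them (adjusted p = 0.0188). For Ddit4 the KD-Nap1l2 libraries were far apart, at 63.2 and 113 CPM, and it was called in KD-Nap1l2 without the second (adjusted p = 0.0306).

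In metabolism and transport, 4 of the 6 tested genes were called higher in both kinds of cells. The share of all genes called higher was 4.83% in NC and 6.84% in KD-Nap1l2. Pdk4 encodes a kinase that shuts pyruvate dehydrogenase and so spares glucose. It was at 23.1 and 34.8 CPM in NC, 28.3 and 40.1 in KD-Nap1l2, 209 and 283 in NC-7day, and 303 and 284 in KD-Nap1l2-7day, a rise of 8.49-fold in NC and 8.59-fold in KD-Nap1l2 (log2 fold change 3.09 ± 0.27 in NC (adjusted p = 0.00143) and 3.10 ± 0.27 in KD-Nap1l2 (adjusted p = 0.000849)). Glul encodes glutamine synthetase and was at 45.8 and 51.4 CPM in NC, 65.0 and 65.9 in KD-Nap1l2, 388 and 458 in NC-7day, and 319.8 and 429.6 in KD-Nap1l2-7day. It rose by a log2 fold change of 3.12 ± 0.19 in NC (adjusted p = 0.000417) and 2.52 ± 0.18 in KD-Nap1l2 (adjusted p = 0.000509).

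Cdo1 encodes cysteine dioxygenase, which oxidizes cysteine towards taurine. It was at 51.0 and 54.2 CPM in NC, 26.1 and 22.6 in KD-Nap1l2, 484 and 447 in NC-7day, and 401 and 498 in KD-Nap1l2-7day. The KD-Nap1l2 libraries before induction were the lowest, and all induced libraries were close together. The log2 fold change was 3.15 ± 0.16 in NC (adjusted p = 0.000173) and 4.21 ± 0.17 in KD-Nap1l2 (adjusted p = 4.32e-05), and per length Cdo1 moved from 34.7 ± 1.70 to 308 ± 7.40 FPKM in NC, where it became the most abundant member by mean FPKM. Maoa, which encodes a monoamine oxidase, was at 194 and 189 CPM in NC, 170.3 and 154 in KD-Nap1l2, 369.5 and 469 in NC-7day, and 378 and 477 in KD-Nap1l2-7day. It rose in both kinds of cells, by a log2 fold change of 1.13 ± 0.17 in NC (adjusted p = 0.00942) and 1.40 ± 0.17 in KD-Nap1l2 (adjusted p = 0.00338), and the call in NC was lost without either NC library (adjusted p = 0.0941 and 0.0578).

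The arrestin-like genes Txnip and Arrdc2 were not called. Txnip, a thioredoxin-binding brake on glucose uptake, spread from 253 to 860.4 CPM within KD-Nap1l2 alone. Mfsd2a, a lipid transporter, had at most 4 estimated counts in any library and was not tested.

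At the cell surface, Mertk, a receptor tyrosine kinase by which cells take up apoptotic debris, was at 31.5 and 36.5 CPM in NC, 36.5 and 31.4 in KD-Nap1l2, 130.2 and 124 in NC-7day, and 122 and 119 in KD-Nap1l2-7day. Its libraries agreed closely within each group, and it rose by a log2 fold change of 1.90 ± 0.13 in NC (adjusted p = 0.000534) and 1.82 ± 0.13 in KD-Nap1l2 (adjusted p = 0.000509). Thbd, the thrombin receptor thrombomodulin, was not called, with log2 fold changes of -0.07 ± 0.45 and -0.35 ± 0.44, and KD-Nap1l2 replicate 2 stood apart at 112 CPM against 51.6 CPM in replicate 1.

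Whether the shRNA label changed these genes was asked at both time points. Before induction, edgeR called no member between KD-Nap1l2 and NC, where 0.0817% of all genes were called, while 9 members had an unadjusted p under 0.05 (5 lower and 4 higher in KD-Nap1l2), as did 1852 of all genes (13.7%). DESeq2 called 4 members and limma on log2(FPKM + 1) called 1. The lowest adjusted p was that of Cdo1, with both KD-Nap1l2 libraries below both NC libraries and a log2 fold change of -1.11 ± 0.16 (adjusted p = 0.0642). The other 4 that were lower at an unadjusted p under 0.05 were Hif3a, Errfi1, Zbtb16 and Rgs2, at -1.89, -1.25, -0.92 and -0.82. Leaving out 1 library moved Hif3a between -2.70 and -1.345 and Zbtb16 between -1.76 and -0.388, the lowest values without KD-Nap1l2 replicate 2. Those that were higher were Bcl6, Ddit4, Deptor and Glul, at 0.94, 0.92, 0.61 and 0.43. Nr3c1 and Mertk had values of 0.03 ± 0.19 and -0.00 ± 0.13.

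After 7 days, edgeR called no member and 0% of all genes between KD-Nap1l2-7day and NC-7day. In this comparison 2 members, Klf15 and Bcl6, had an unadjusted p under 0.05, as did 1057 of all genes (7.85%), and neither DESeq2 nor limma called any member. In 27 of 30 members the log2 difference was under 0.5 in size, with SEs from 0.12 to 0.56. This count was not made over all genes. The median difference was -0.0060 for the members and -0.0056 for all tested genes. Hif3a and Fkbp5, with the largest rises in both kinds of cells, had differences of 0.03 ± 0.18 and -0.10 ± 0.31. The difference was -0.05 ± 0.15 for Cdo1, -0.10 ± 0.32 for Zbtb16 and 0.30 ± 0.23 for Tsc22d3, of which both KD-Nap1l2-7day libraries lay above both NC-7day libraries.

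**Figure D5:**
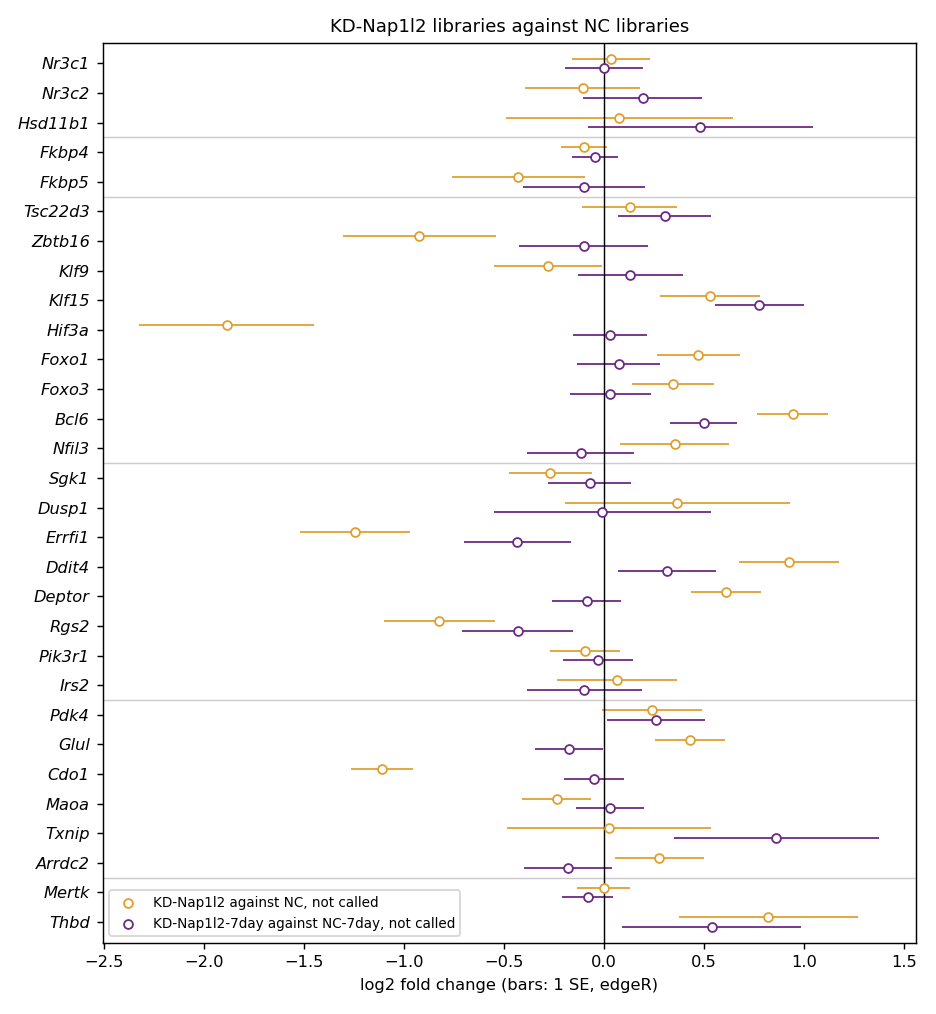
Log2 fold change of the 30 tested members between the KD-Nap1l2 and the NC libraries, before induction (orange) and after 7 days (purple), with bars of 1 SE from edgeR. All points are open because none had an adjusted p under 0.05. Before induction the points reach from -1.89 for Hif3a to 0.94 for Bcl6, and after 7 days they lie between -0.43 and 0.86.

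The difference between the induction responses was tested directly. No member and 0% of all genes were called by edgeR, although 4 members and 948 genes (7.04%) had an unadjusted p under 0.05, and DESeq2 called 1 member, Cdo1. The response was larger in KD-Nap1l2 by 1.92 ± 0.48 for Hif3a and by 1.06 ± 0.22 for Cdo1, with adjusted p of 0.454 and 0.403. For Hif3a, leaving out 1 library moved the difference between 1.375 and 2.73, the highest without KD-Nap1l2 replicate 2. The response was smaller in KD-Nap1l2 by -0.70 ± 0.24 for Deptor and -0.60 ± 0.24 for Glul. For Fkbp5, Tsc22d3 and Nr3c1 the differences were 0.33 ± 0.45, 0.18 ± 0.33 and -0.04 ± 0.27.

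All of 24 genes for chaperones, immunophilins, coactivators and corepressors were tested. Against 4.83% of all genes in NC and 6.84% in KD-Nap1l2, 1 of the 24 was called higher in each induction. This was Nrip1, a corepressor also called RIP140, at 19.0 and 22.4 CPM in NC, 21.6 and 16.7 in KD-Nap1l2, 34.7 and 40.7 in NC-7day, and 40.2 and 28.8 in KD-Nap1l2-7day. It was higher in all induced libraries, with a log2 fold change of 0.87 ± 0.21 in NC (adjusted p = 0.045) and 0.85 ± 0.21 in KD-Nap1l2 (adjusted p = 0.0355), but only 7 of 16 alternatives called it in NC and 8 in KD-Nap1l2. Both calls were lost in limma on FPKM, and leaving out 1 library raised the adjusted p to as much as 0.289 in NC, without NC replicate 1, and 0.227 in KD-Nap1l2, without KD-Nap1l2-7day replicate 1. The median log2 fold change of the 24 genes was 0.19 in NC and 0.17 in KD-Nap1l2.

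Of 11 genes that handle steroids, 8 could be tested. EdgeR called 3 higher in NC and 1 in KD-Nap1l2, against 4.83% and 6.84% of all genes. H6pd encodes the endoplasmic reticulum dehydrogenase that supplies NADPH to the enzyme made from Hsd11b1. It was at 71.5 and 84.2 CPM in NC, 64.2 and 80.0 in KD-Nap1l2, 227 and 177 in NC-7day, and 229 and 215 in KD-Nap1l2-7day and rose by a log2 fold change of 1.38 ± 0.18 in NC (adjusted p = 0.00542) and 1.62 ± 0.18 in KD-Nap1l2 (adjusted p = 0.00221), with the call in NC lost without NC replicate 1 (adjusted p = 0.0659). Por, the electron donor of microsomal cytochromes P450, was higher in all induced libraries, with a log2 fold change of 0.88 ± 0.17 in NC (adjusted p = 0.0221) and 0.60 ± 0.17 in KD-Nap1l2 (adjusted p = 0.0554). Its call in NC was lost without any 1 library of NC, NC-7day or KD-Nap1l2-7day (adjusted p up to 0.184, without NC replicate 1). Hsd11b2, which inactivates the hormone, was at 0.270 and 0.205 CPM in NC, 0.322 and 0.399 in KD-Nap1l2, 5.51 and 1.84 in NC-7day, and 1.04 and 0.629 in KD-Nap1l2-7day, where 3 counts equal 0.154 to 0.176 CPM. It was near that floor before induction only. Its log2 fold change was 3.91 ± 0.66 in NC (adjusted p = 0.0135) and 1.21 ± 0.68 in KD-Nap1l2 (adjusted p = 0.267), and the call in NC was lost without either NC library. Without NC-7day replicate 1 or 2 the value in NC was 2.92 or 4.50. Cyp11a1 and Serpina6, for steroid synthesis and transport in blood, were at or near 0. Of 4 receptors for other steroids, 2 could be tested, and 0 were called in either induction. Among the 4, Pgr had too few counts to test, and Esr1 and Esr2 were below 1 CPM in every library.

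A further 16 genes known to be raised by glucocorticoids were read in the same way. Of the 15 tested, all had positive log2 fold changes in both kinds of cells. EdgeR called 4 higher in NC and 6 in KD-Nap1l2, against 4.83% and 6.84% of all genes. The list was chosen with earlier results of these data known, so these counts are not read as evidence. Cebpb, a C/EBP transcription factor, was at 61.6 and 53.9 CPM in NC, 53.5 and 56.5 in KD-Nap1l2, 159 and 137 in NC-7day, and 182 and 192 in KD-Nap1l2-7day and rose by 1.36 ± 0.13 in NC (adjusted p = 0.00202) and 1.77 ± 0.14 in KD-Nap1l2 (adjusted p = 0.000591) on the log2 scale. Fam107a, a cytoskeletal protein gene, was at 52.5 and 86.3 CPM in NC, 16.2 and 6.04 in KD-Nap1l2, 433 and 478 in NC-7day, and 347 and 339.6 in KD-Nap1l2-7day. As with Cdo1, its KD-Nap1l2 libraries were the lowest, and its log2 fold change was 2.72 ± 0.41 in NC (adjusted p = 0.00925) and 4.94 ± 0.46 in KD-Nap1l2 (adjusted p = 0.00107), with the call in NC lost without NC replicate 1. Sesn1, a stress-induced inhibitor of mTOR complex 1, rose by 1.09 ± 0.13 in NC (adjusted p = 0.0044) and 0.75 ± 0.13 in KD-Nap1l2 (adjusted p = 0.0116), the second call being lost without either KD-Nap1l2-7day library. EdgeR called Anxa1 in NC and not in KD-Nap1l2 (0.90 ± 0.19, adjusted p = 0.0302), and Angptl4, Trim63 and Nfkbia in KD-Nap1l2 and not in NC, at 1.26, 2.10 and 0.76. The call of Anxa1 held in 11 of 16 alternatives, that of Angptl4 in 15 of 16, that of Trim63 in 12 of 15 and that of Nfkbia in 13 of 16, and each was lost on leaving out single libraries (adjusted p up to 0.205 without NC replicate 1, and up to 0.0951, 0.108 and 0.133 without KD-Nap1l2-7day replicate 1). In NC, Nfkbia was called in 6 alternatives and Angptl4 in 1. EdgeR called no difference between the responses for these genes. The classical liver target Tat was at or near 0.

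Of 10 genes known to be lowered by glucocorticoids, 8 were tested and none was called lower. EdgeR called 2 higher in NC and 5 in KD-Nap1l2, against 4.83% and 6.84% of all genes. Cxcl1, a neutrophil chemokine, was at 36.0 and 32.9 CPM in NC, 32.9 and 37.9 in KD-Nap1l2, 79.2 and 104 in NC-7day, and 240.4 and 183 in KD-Nap1l2-7day and rose by 1.41 ± 0.19 in NC (adjusted p = 0.00621) and 2.58 ± 0.20 in KD-Nap1l2 (adjusted p = 0.00059) on the log2 scale. Cxcl5, another such chemokine, was at 18.5 and 39.0 CPM in NC, 50.4 and 20.3 in KD-Nap1l2, 160.1 and 148 in NC-7day, and 249.6 and 229 in KD-Nap1l2-7day and rose by 2.42 ± 0.45 in NC (adjusted p = 0.019) and 2.76 ± 0.45 in KD-Nap1l2 (adjusted p = 0.00944). The calls in NC were lost without NC replicate 1 for both chemokines and without NC-7day replicate 1 for Cxcl5. In KD-Nap1l2 that of Cxcl5 was lost without either KD-Nap1l2-7day library. Ccl2 and Ccl7, monocyte chemokines, and Ptgs2, the inducible cyclooxygenase, were called higher in KD-Nap1l2, at 1.29, 1.37 and 1.03. The call of Ptgs2 held in 8 of 16 alternatives, with an adjusted p of 0.25 and a value of 0.63 without KD-Nap1l2-7day replicate 1. In NC the log2 fold changes of Ccl2, Ccl7 and Ptgs2 were -0.18, 0.17 and 0.14. The difference between the responses was 1.47 ± 0.24 for Ccl2 and 1.20 ± 0.16 for Ccl7 and was not called by edgeR (adjusted p = 0.343 and 0.343), although DESeq2 called both. It also called that of Cxcl1, 1.17 ± 0.26. For each of these 3 genes, DESeq2 was the only 1 of 15 alternatives that called the difference. All 8 tested genes of this list had a positive difference, which for a gene that fell in NC means a smaller fall or a rise in KD-Nap1l2. The median difference was 1.18, against -0.0186 for all tested genes. An unadjusted p under 0.05 was found for 6 of them (7.04% of all genes). These were Ccl2, Ccl7, Cxcl1, Icam1, Il6 and Ptgs2, the last 3 at 1.80, 1.40 and 0.89. The list was chosen with earlier results of these data known, so this count is not read as evidence. In NC, 4 of the 8 tested genes had negative log2 fold changes, down to -2.02, and the median was -0.02. In KD-Nap1l2, 2 of the 8 were negative, down to -0.82, and the median was 1.16. Vcam1, an adhesion molecule, was lower on average without a call, at -0.85 ± 0.26 in NC and -0.82 ± 0.26 in KD-Nap1l2. Pomc and Csf2 had too few counts to test.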

How the data were processed

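RNA from C3H10T1/2 cells was sequenced in 8 libraries. Per the labels, processing used BWA, Bowtie2 and RSEM with build GRCm38.p6, and no versions are given in the sources used here. The authors deposited estimated counts and FPKM per gene and per transcript. RSEM splits reads shared by transcripts or paralogs, so such counts are estimates. Tables of the authors' own comparisons (fold changes, p-values) were not used.

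Estimated counts were rounded to whole numbers and tested in R 4.3.3 with edgeR 4.0.16 (quasi-likelihood test, TMM, filterByExpr, all 8 libraries in 1 fit, 1 mean per group). Benjamini-Hochberg adjustment ran over all 13470 genes tested. Values are log2 fold change ± SE, and CPM are TMM-normalized. The total counts per library set the precision, and intervals and floors (3 counts) cover counting error only. Alternatives were DESeq2 1.42.0, limma 3.58.1 on log2(FPKM + 1) and log2(FPKM + 0.1), RLE size factors, other filters, fewer libraries and a replicate block. Code was tested on simulated data.

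The members, their roles and the other lists were chosen with earlier results of these data known. Values in every library are given for members called in any contrast and for Nr3c2, Hsd11b1 and Fkbp4. Other genes of the lists are given where called. Sequences are from RefSeq tables of GRCm38.p6, and transcript starts from GENCODE vM21.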

Additional observations from a re-analysis of the deposited data

How the results depend on the processing

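Over the alternatives other than leaving out a library, edgeR, DESeq2 and limma called 16 to 22 members in the induction of NC and 17 to 19 in that of KD-Nap1l2, and the members called were kept except for Rgs2 in NC, which was not called when only the 4 libraries compared were fitted, and Hif3a, which at least 10 counts in every library left untested. Asking for a fold of at least 2 as well left 669 of 1106 genes in NC and 1039 of 1912 in KD-Nap1l2. Before induction, DESeq2 called 4 members and 462 genes between KD-Nap1l2 and NC, the fit without a filter 2 and 160, and limma on log2(FPKM + 1) 1 and 33, against 0 and 11. The genes called there were 18 with limma on log2(FPKM + 0.1), 4 with at least 10 counts in every library and 0 with only the 4 libraries compared. DESeq2 called 82 genes between KD-Nap1l2-7day and NC-7day, and 97 genes and 1 member for the difference between the responses, where the fit without a filter called 1 gene. The cause was not tested.

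Leaving out 1 library in turn gave 11 to 21 members and 122 to 1490 genes in NC, and 13 to 20 members and 305 to 2218 genes in KD-Nap1l2, lowest without NC replicate 1 and without KD-Nap1l2-7day replicate 1. The lone library of a group was then assumed to vary like the other groups. It gave 0 to 2 members and 0 to 562 genes between KD-Nap1l2 and NC, 0 to 1 genes after 7 days, and 0 to 19 genes for the difference, the highest values without KD-Nap1l2 replicate 1, NC-7day replicate 1 and NC-7day replicate 1. The log2 fold change changed sign for Thbd (-0.88 to 0.45), Hsd11b1 (-0.71 to 1.03) and Ptgs2 (-0.012 to 0.31) in NC, and for Thbd (-0.81 to 0.31), Nfil3 (-0.028 to 0.80), Ddit4 (-0.039 to 0.80), Arrdc2 (-0.20 to 0.39) and Txnip (-0.26 to 1.50) in KD-Nap1l2. The difference between the responses changed sign for Fkbp5 (-0.33 to 0.78), Tsc22d3 (-0.13 to 0.56) and Nr3c1 (-0.27 to 0.17).

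The labels give the same replicate numbers in each group but no shared culture or day, and deviations of same-numbered libraries correlated between -0.108 and 0.136 over genes. With the replicate block, edgeR called 17 members and 961 genes in NC, 18 and 1757 in KD-Nap1l2, and 0 members and 4 genes between KD-Nap1l2 and NC. Pairing NC and KD-Nap1l2 crosswise, which was decided once the data had been seen, it called 0 members and 12 genes there.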

Other observations

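The order of the members by mean FPKM, a level per length, shifted with induction. In NC, Txnip and Nr3c1 ranked 1 and 7 of the 30 tested members, while Tsc22d3, Glul and Fkbp5 ranked 13, 14 and 24. In NC-7day, Cdo1 ranked 1, Tsc22d3 4, Glul 5 and Fkbp5 8, while Txnip ranked 7 and Nr3c1 20. In KD-Nap1l2-7day the ranks were 1 for Cdo1, 3 for Tsc22d3, 6 for Glul, 9 for Fkbp5, 2 for Txnip and 22 for Nr3c1.

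Among transcripts, the rise of Tsc22d3 lay mostly in NM_010286.4, which held 95.2% of the gene's estimated counts in NC and 89% in NC-7day. For Hif3a, NM_001162950.1 held 100% in NC, 81% in NC-7day, 100% in KD-Nap1l2 and 96.4% in KD-Nap1l2-7day. The 81% rested mostly on NC-7day replicate 1, where NM_016868.3 had 223 estimated counts, against 0 in every other library. In NC both transcripts of Deptor had more counts after induction, and NM_145470.3 held 58.8% of its counts in NC and 73.7% in NC-7day. In KD-Nap1l2 its other transcript, NM_001037937.3, overlapped between the time points, with estimated counts of 610.5 and 422 in KD-Nap1l2 and 531 and 1939 in KD-Nap1l2-7day. These shares are estimates of how shared reads were split and were not tested.

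Replicate libraries of the members differed most within KD-Nap1l2, where 6 of the 30 differed by more than 2-fold, against 1 in NC, 3 in NC-7day and 0 in KD-Nap1l2-7day. This order was not particular to the members. Over all 13470 tested genes, the SD of the log2 difference between replicates was 0.453 in KD-Nap1l2 and 0.421 in NC-7day. It was 0.31 in NC and 0.243 in KD-Nap1l2-7day.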
